A study of Rattus norvegicus with 2 samples.

Results

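The genes described here are T, Cdx1, Cdx2, Sp5, Nkd1, Lgr5 and Rnf43, targets of beta-catenin that are known from the primitive streak, where the embryo forms mesoderm and endoderm. They were taken by gene symbol, with earlier results of these data known, and are 7 of the 23282 genes of the deposited table. Each had 1 row, described in the table as a GNOMON prediction for Cdx1 and Nkd1 and as a BestRefseq model for the other genes. RNA was sequenced from 2 libraries of the rat (Rattus norvegicus) embryonic stem cell line DA-EC8/Rrrc, of the Dark Agouti strain, at passage 30 and with a karyotype given as normal. Both libraries are wild type, without further treatment, from cells grown in 2i medium, which holds inhibitors of the kinases MEK and GSK3. The line is a single line, and the series design calls the libraries biological replicates without saying what was kept separate. The series holds no cells grown without the inhibitors, so the levels below cannot be assigned to inhibition of GSK3.

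Beta-catenin is marked for destruction by a complex that holds GSK3, Axin and Apc. When GSK3 is blocked, beta-catenin builds up and acts on DNA through TCF and LEF factors, as it does after a Wnt signal. In the embryo, Wnt3 and beta-catenin are needed for the primitive streak, and T and the Cdx genes are classic targets there. In mouse embryonic stem cells the same inhibitor supports self-renewal, largely by relieving repression by the factor Tcf7l1.

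Levels are RPKM, the reads of a gene scaled by the length of its model and by the read total of the library, so genes can be compared per length. The spacing of the values puts the read totals at 2991184 (replicate 1) and 3050685 (replicate 2). A floor of 3 reads over 2 kb then corresponds to 0.501 and 0.492 RPKM, counting error only. Genes whose mean was 1 RPKM or more are called detected. Genes that every cell uses can be listed at 0, as the ribosomal protein gene Rps6 was in both libraries, so a 0 in the table is not proof of absent RNA. All 12 pluripotency markers were detected, with a median of 77.3 ± 2.68 RPKM (SD, n = 2), as the labelled cell type calls for. Of 13 fibroblast and feeder cell markers 5 were detected and 4 were listed at 0 in both libraries. Among all genes of the table these shares were 46.4% and 38.2%. Levels of the 13 markers summed to 672 and 785 RPKM (replicates 1 and 2), of which Fn1 made up 664 and 771 RPKM. Col1a2, Lum, Acta2 and S100a4 were the markers at 0. In bulk RNA a few cells with a high level and many with a low level cannot be told apart.

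Values of the 7 streak targets ran from 0 to 2.45 RPKM. Cdx2, Rnf43 and Nkd1 were detected, T, Cdx1 and Sp5 were below 1 RPKM, and Lgr5 was listed at 0. Detection of 3 of 7 genes stands beside 46.4% of all genes of the table, so it does not set these genes apart. None of them reached a mean of 10 RPKM, which 29.4% of all genes did. The median of the 7 genes was 0.589 ± 0.364 RPKM (SD, n = 2), beside 0.536 ± 0.0284 RPKM for all genes and 16.7 ± 0.151 RPKM for all detected genes.

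**Figure D1:**
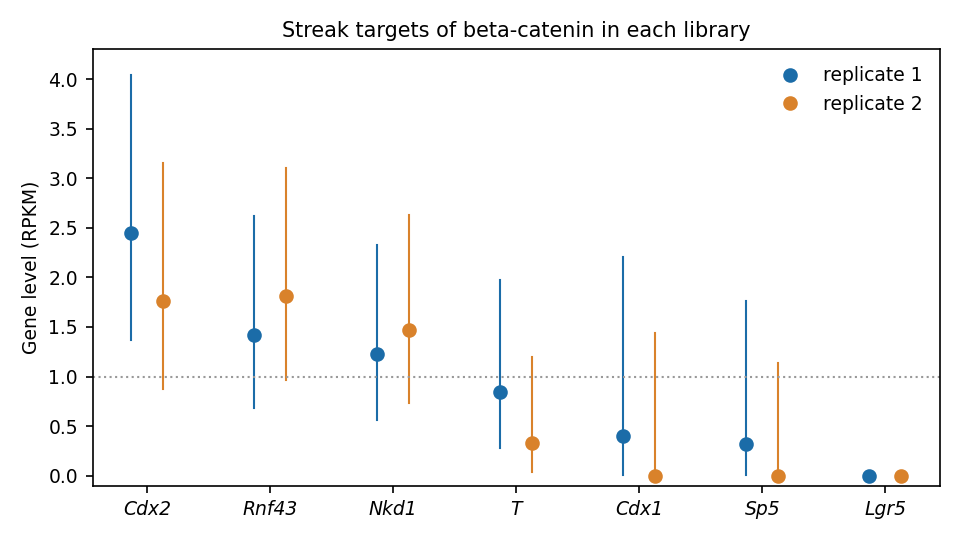
Level of the 7 streak targets in RPKM in each library, with lines for the exact 95% Poisson intervals of the recovered reads (counting error only; none for Lgr5) and a dotted line at 1 RPKM. Cdx2, Rnf43 and Nkd1 lie above 1 RPKM in both replicates, the other 4 genes below it in both.

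Among the transcription factors, Cdx2 was the highest. Cdx2 encodes a caudal-type homeobox factor that patterns the posterior embryo, specifies trophectoderm and later maintains the intestine (Entrez gene 66019, rn5 chromosome 12, 11578895 to 11585434). It stood at 2.45 RPKM (replicate 1) and 1.76 RPKM (replicate 2), a mean of 2.10 ± 0.486 RPKM (SD, n = 2). These values equal 15 and 11 reads over a model of 2049 bp, which gives exact 95% Poisson intervals of 1.37 to 4.04 RPKM and 0.878 to 3.15 RPKM. Each interval holds the value of the other replicate. Cdx2 ranked 9816th of all genes by mean level.

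T encodes Brachyury, the T-box factor that defines the streak and the notochord (Entrez gene 292301, rn5 chromosome 1, 54139554 to 54147319). T stood at 0.847 RPKM (replicate 1) and 0.332 RPKM (replicate 2), a mean of 0.589 ± 0.364 RPKM. Behind these stand 5 and 2 reads over 1974 bp, with intervals of 0.275 to 1.98 RPKM and 0.0402 to 1.20 RPKM. The interval of each replicate holds the value of the other, and both reach above 1 RPKM. The data thus place T low without separating it from the detection minimum.

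Cdx1, the paralogue of Cdx2 that acts in the streak and in intestinal epithelium (Entrez gene 364883, rn5 chromosome 18, 55570839 to 55592973), was at 0.397 RPKM in replicate 1 and at 0 in replicate 2. Sp5, a zinc finger factor of the Sp family that dampens Wnt responses (Entrez gene 296510, rn5 chromosome 3, 63385629 to 63388430), was at 0.315 RPKM in replicate 1 and at 0 in replicate 2. Each of these values equals 1 read, over models of 843 bp for Cdx1 and 1060 bp for Sp5. Pooled over both libraries, 1 read allows up to 1.09 RPKM for Cdx1 and up to 0.870 RPKM for Sp5 at the upper end of the exact 95% Poisson interval. A value above 0 in 1 library only was seen for 6.65% of all genes. Among the 1913 genes with a mean from 0.1 to 0.5 RPKM, where Cdx1 and Sp5 lie, it was seen for 42.5%, so it does not set them apart.

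Nkd1 and Rnf43 encode feedback inhibitors of the Wnt pathway, and both were detected. Nkd1 binds Dishevelled, which carries the signal from the receptor (Entrez gene 364952, rn5 chromosome 19, 30468091 to 30539237). It stood at 1.22 RPKM (replicate 1) and 1.47 RPKM (replicate 2), a mean of 1.35 ± 0.172 RPKM, from 9 and 11 reads over 2457 bp. Rnf43 is a membrane ubiquitin ligase that removes Frizzled receptors from the cell surface (Entrez gene 303412, rn5 chromosome 10, 75073437 to 75143103). It stood at 1.42 RPKM (replicate 1) and 1.81 RPKM (replicate 2), a mean of 1.62 ± 0.276 RPKM, from 10 and 13 reads over 2349 bp. Pooled over the libraries, the exact 95% Poisson interval was 0.823 to 2.08 RPKM for Nkd1 and 1.03 to 2.43 RPKM for Rnf43. Both genes were slightly higher in replicate 2, within the counting error of a single library (27.7% or more of the value).

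Lgr5, the R-spondin receptor that marks intestinal stem cells (Entrez gene 299802, rn5 chromosome 7, 58459666 to 58596253), was listed at 0 in both libraries. Its model length could not be recovered from values of 0. For a model of 2 kb, 3 reads would equal 0.501 RPKM in replicate 1, and a longer model would lower that limit. A value of 0 in both libraries was shared by 38.2% of all genes.

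In order of mean level the genes were Cdx2, Rnf43, Nkd1, T, Cdx1, Sp5 and Lgr5. The libraries of Cdx2 and Rnf43 overlapped, as did those of Rnf43 and Nkd1, of T and Cdx1, of Cdx1 and Sp5, and of Sp5 and Lgr5. Only Nkd1 and T were apart, with both libraries of Nkd1 above both of T, yet their pooled Poisson intervals overlapped (0.823 to 2.08 RPKM and 0.236 to 1.21 RPKM). T, Cdx1, Cdx2 and Sp5 were higher in replicate 1 and Nkd1 and Rnf43 in replicate 2. Of all 23282 genes 6444 were higher in replicate 2 and 7936 in replicate 1. Among fibroblast and feeder cell markers 7 were higher in replicate 2 and 2 in replicate 1, some on few reads (Twist1 on 1 and 3). Whether such cells contributed reads to the streak targets was not tested.

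**Figure D2:**
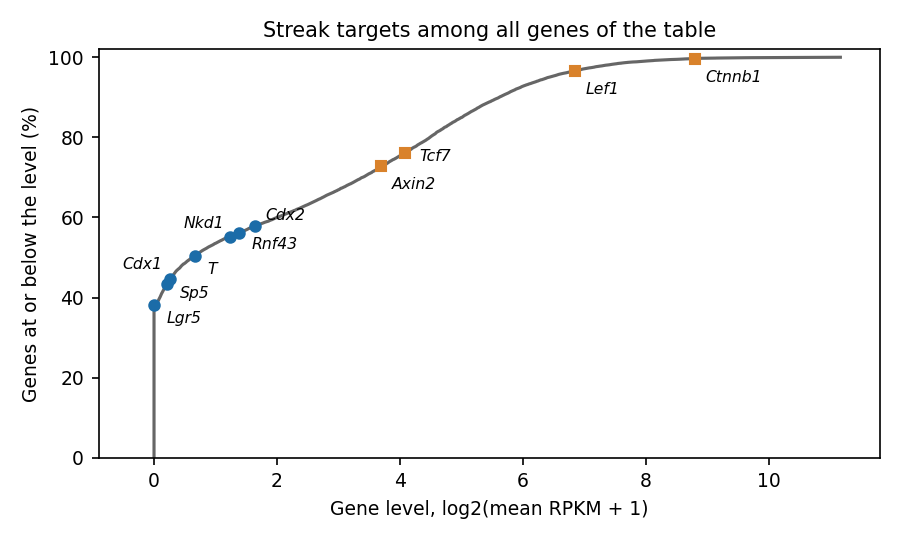
Share of all genes of the table (percent, y axis) at or below each level (log2 of mean RPKM + 1, x axis), with the 7 streak targets as circles and Axin2, Tcf7, Lef1 and Ctnnb1 as squares. The streak targets run from Lgr5 at 0 to Cdx2 at 2.10 RPKM, at the 57.8th percentile of all genes, and all 4 squares lie above them.

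Promoter sequence was set beside the levels because TCF and LEF factors read a short DNA motif, and a low target can carry it as well as an active one. Windows of 300 bases, from 250 before to 50 after the RefSeq gene start on the GRCr8 build, were matched by Entrez identifier for 6 of the 7 genes. They were searched on both strands for the TCF/LEF heptamer CTTTGAT and for its variants CTTTGAA and CTTTGTT and CTTTGTA, which share their first 5 letters, so no site counts under more than 1 of them. The 4 members with a match are printed 5′ to 3′ on the gene's strand, with Axin2, a target that was expressed, for comparison. Capitals mark the heptamers, written as they stand on this strand. The windows are chr3:75682427-75682726 (plus strand) for Sp5, chr18:56761250-56761549 (minus strand) for Cdx1, chr19:34722797-34723096 (minus strand) for Nkd1, chr1:54853534-54853833 (minus strand) for T, and chr10:94398535-94398834 (plus strand) for Axin2.
Sp5: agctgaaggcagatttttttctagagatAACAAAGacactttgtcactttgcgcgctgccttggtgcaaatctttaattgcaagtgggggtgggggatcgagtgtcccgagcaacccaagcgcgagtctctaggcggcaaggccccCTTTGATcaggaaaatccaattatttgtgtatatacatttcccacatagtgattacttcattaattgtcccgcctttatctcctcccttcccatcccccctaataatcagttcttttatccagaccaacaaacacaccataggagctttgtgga
Cdx1: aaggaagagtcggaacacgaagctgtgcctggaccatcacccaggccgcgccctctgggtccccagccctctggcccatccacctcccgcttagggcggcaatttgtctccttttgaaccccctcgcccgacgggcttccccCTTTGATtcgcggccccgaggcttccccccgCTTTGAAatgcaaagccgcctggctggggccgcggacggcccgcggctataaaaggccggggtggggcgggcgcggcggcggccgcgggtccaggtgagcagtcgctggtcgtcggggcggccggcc
Nkd1: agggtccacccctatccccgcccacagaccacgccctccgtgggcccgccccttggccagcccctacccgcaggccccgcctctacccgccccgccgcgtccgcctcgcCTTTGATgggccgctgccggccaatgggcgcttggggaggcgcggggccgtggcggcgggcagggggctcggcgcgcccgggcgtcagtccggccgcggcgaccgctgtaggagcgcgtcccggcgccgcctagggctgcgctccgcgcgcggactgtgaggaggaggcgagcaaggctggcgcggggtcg
T: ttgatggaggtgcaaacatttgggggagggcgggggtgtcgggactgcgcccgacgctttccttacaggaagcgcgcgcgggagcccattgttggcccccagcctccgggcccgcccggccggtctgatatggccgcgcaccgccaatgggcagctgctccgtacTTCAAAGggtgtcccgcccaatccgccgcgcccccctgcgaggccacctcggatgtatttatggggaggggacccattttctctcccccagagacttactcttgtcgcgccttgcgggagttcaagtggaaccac
Axin2: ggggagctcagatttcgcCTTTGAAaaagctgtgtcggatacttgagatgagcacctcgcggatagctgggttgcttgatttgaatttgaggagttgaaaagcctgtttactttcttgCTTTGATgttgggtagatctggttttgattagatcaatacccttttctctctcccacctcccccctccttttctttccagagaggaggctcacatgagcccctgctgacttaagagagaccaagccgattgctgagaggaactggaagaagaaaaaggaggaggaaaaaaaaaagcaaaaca

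CTTTGAT, the form closest to the known consensus, occurred in the windows of Sp5, Cdx1 and Nkd1, 3 of 6. All promoter windows, 27457 with 1 for each gene, held it in 3.62%. It began 104 bases before the start of Sp5, 108 bases before that of Cdx1 and 141 bases before that of Nkd1. In Axin2, at 11.9 ± 0.391 RPKM, it began 132 bases before the start. Sp5 and Cdx1, with 1 read each, thus carried the same 7 letters at a like distance as Axin2 did. In Tcf7, another expressed target at 15.9 ± 0.924 RPKM, CTTTGAT began only 4 bases before the start. Of 16 windows of other beta-catenin targets 2 held CTTTGAT. T held CTTTGAA, on the minus strand of the gene, 85 bases before its start, and Cdx1 held it as well, 77 bases before. No heptamer of the 4 was in the windows of Cdx2 and Rnf43, which had the highest means of the 7 genes, nor in that of Lef1. The libraries of Rnf43 overlapped those of Nkd1, which held CTTTGAT, so presence of a heptamer is not ordered by level here.

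Any of the 4 heptamers occurred in 4 of 6 streak target windows, in 6 of 16 windows of other beta-catenin targets and in 16.8% of all windows. These genes are known as targets of TCF factors, so the count is a description of the list and not evidence about binding in these cells. Across the table, any heptamer was held by 10.6% of windows of detected genes and by 21.2% of windows of genes listed at 0 in both libraries. These 2 sets of windows also differed in base composition, with a median of 61.3% and 47.0% G and C. Whether base composition accounts for the difference in heptamers was not tested. The CG dinucleotide, dense in promoters of housekeeping and developmental genes, occurred 44 times in the Nkd1 window, 32 times in that of Cdx1, 26 times in that of T and 18 times in that of Cdx2. Sp5 had 8 and Rnf43 had 4, beside a median of 22 in windows of detected genes and 3 in windows of genes at 0. CG content thus did not follow the order of the levels within these 6 genes. The Rnf43 window lies on the other strand than the rn5 row, as did 9.35% of matched genes. Whether it holds the promoter of that row was not tested, which also limits its lack of a heptamer.

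**Figure D3:**
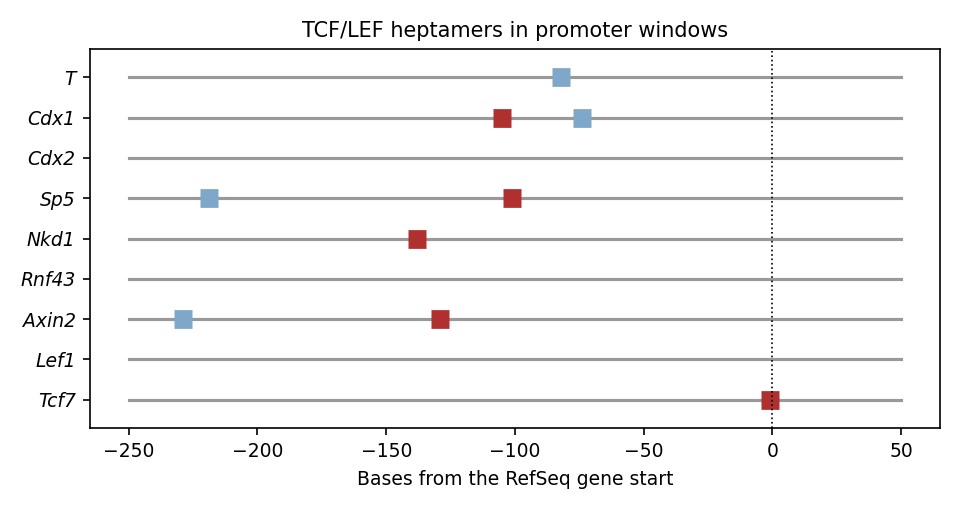
Position of TCF/LEF heptamers in promoter windows, in bases from the RefSeq gene start (dotted line), with CTTTGAT in red and the other 3 forms in blue, for 6 streak targets and 3 other targets. Red marks lie 104 to 141 bases before the start in Sp5, Cdx1, Nkd1 and Axin2 and 4 bases before it in Tcf7. Cdx2, Rnf43 and Lef1 hold no mark.

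Genes that make and control beta-catenin were abundant while the streak targets were low. All 13 measured genes of the list of beta-catenin, its destruction complex and its TCF partners were detected, beside 46.4% of all genes. The list median was 29.2 ± 2.21 RPKM (SD, n = 2), beside 16.7 ± 0.151 RPKM for all detected genes. Ctnnb1, which encodes beta-catenin, was at 440.5 and 443 RPKM. Csnk1a1, the kinase that primes beta-catenin for GSK3, was at 158 ± 0.0312 RPKM, and the partner factor Lef1 at 114 ± 2.93 RPKM. The SD of 2 values can fall below the counting error, which for the recovered reads of Csnk1a1 was 4.67% (replicate 1) and 4.62% (replicate 2). Tcf7l2 was lowest of the list at 1.36 and 2.97 RPKM, summed over 2 rows. On the log2(RPKM + 1) scale the median of the streak targets minus that of this list was -4.26 ± 0.44 (SD, n = 2), with -3.95 for replicate 1 and -4.57 for replicate 2. This exceeded the spread of the libraries, a spread that leaves out the choice of genes. Medians on that scale were 4.91 for this list and 4.14 for all detected genes. They were 0.649 for the streak targets and 0.619 for all genes. The gap is thus largely the one between detected genes and all genes. Tcf7l1 was not analysed here.

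Co-repressors that TCF factors recruit in the absence of beta-catenin were also abundant, with 8 of 9 detected, beside 46.4% of all genes. Hdac2, a histone deacetylase, was at 109 ± 1.82 RPKM, Ctbp2 at 108 ± 0.313 RPKM and Tle3, a Groucho-type co-repressor, at 98.6 ± 1.56 RPKM. Tle2 was lowest at 0.832 and 0.408 RPKM.

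Other targets of beta-catenin ranged from abundant to listed at 0. Of 20 measured genes 10 were detected, 4 of them at a mean of at least 10 RPKM. Lef1, Tcf7 and Tcf7l2 are also in the list of beta-catenin and its TCF partners. Nkd2, Cdx4 and Sp8 are also among the relatives described below. Listed at 0 in both libraries were 4, namely Cdx4, Sp8, Dkk1 and Fgf20. Among all genes 46.4% were detected, 29.4% reached a mean of 10 RPKM and 38.2% were at 0. Lef1 was the highest of the list, followed by Bambi, a decoy receptor of the TGF-beta family, at 16.7 ± 0.601 RPKM and Tcf7 at 15.9 ± 0.924 RPKM. Axin2, the feedback scaffold of the destruction complex, stood at 12.2 and 11.7 RPKM, each above every streak target in either library. The list median was 1.09 ± 0.00116 RPKM, an SD that leaves out counting error. On the log2(RPKM + 1) scale the median of the streak targets minus that of this list was -0.41 ± 0.33 (SD, n = 2), with -0.18 for replicate 1 and -0.65 for replicate 2. List means gave -0.95 and a pseudocount of 0.1 gave -0.89, so the size depended on these choices and the sign did not.

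**Figure D4:**
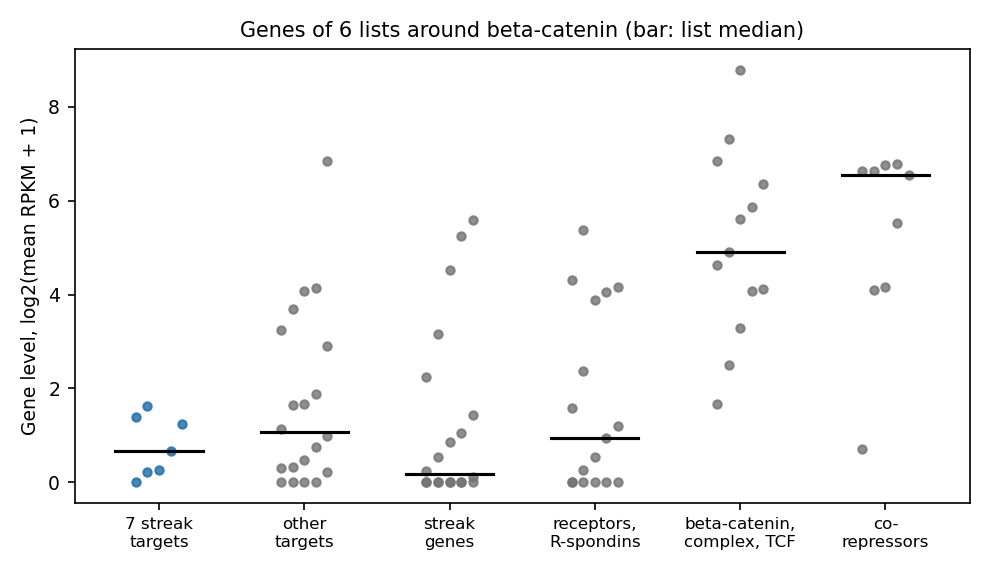
Mean level of each gene (log2 of RPKM + 1, y axis) in 6 lists around beta-catenin, 1 point per gene with a bar at the list median and the 7 streak targets in blue. Beta-catenin with its complex and the co-repressors lie mostly above 10 RPKM, the streak targets all below 3 RPKM, and the other targets spread across the range.

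Of 10 measured relatives of the streak targets 6 were detected, 4 of them at a mean above 10 RPKM, and 3 were listed at 0. Among all genes 46.4% were detected, 29.4% reached a mean of 10 RPKM and 38.2% were at 0. Lgr4, which like Lgr5 binds R-spondins, was at 39.8 and 41.8 RPKM, while Lgr5 and Lgr6 were listed at 0 in both. Eomes, the T-box factor that acts beside T in the streak and also in trophoblast, was at 21.6 and 22.3 RPKM, above T in both libraries. Tbx3, a T-box factor of the naive pluripotency network, was at 42.5 and 42.1 RPKM, and Tbx6, a factor of presomitic mesoderm, at a mean of 1.06 ± 0.150 RPKM. Sp1, the widespread member of the family of Sp5, was at 88.1 and 94.8 RPKM and Sp4 at 3.94 and 3.77 RPKM.

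Cdx2 and Nkd1 were the highest measured genes of their families. Cdx2 lay above Cdx1, also a streak target, in both libraries, by 1.38 ± 0.11 on the log2(RPKM + 1) scale (SD, n = 2), and Cdx4 was listed at 0 in both. That SD leaves out counting error, and Cdx1 rested on 1 read in replicate 1 and 0 reads in replicate 2. Nkd2 was at 0.332 and 0.163 RPKM, from 2 reads and 1 read, and Nkd1 lay above it by 0.91 ± 0.24 on the log2 scale. Sp8, another member of the family of Sp5, was listed at 0 in both libraries. Znrf3, the partner ligase of Rnf43, was not analysed here.

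**Figure D5:**
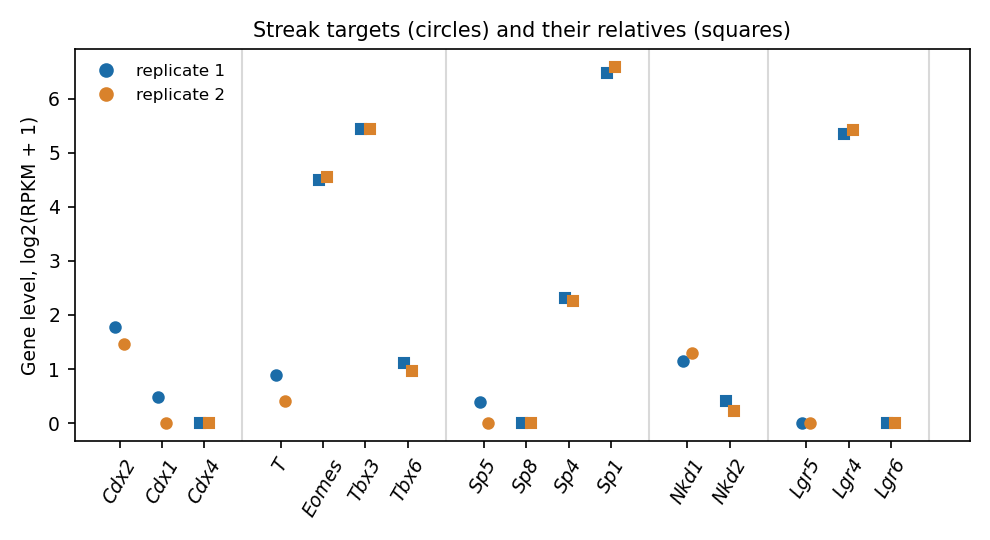
Level (log2 of RPKM + 1, y axis) of streak targets (circles) and their relatives (squares) in each replicate, by family. Lgr4, Eomes, Tbx3 and Sp1 stand above 20 RPKM beside values under 1 RPKM for Lgr5, T and Sp5.

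Partners that act with Lgr5, Rnf43 and Nkd1 were partly present. Of 17 measured receptors, R-spondins and LGR proteins 8 were detected and 6 were listed at 0 in both libraries, namely Fzd7, Fzd8, Rspo2, Rspo3, Rspo4 and Lgr6. These shares, 47.1% and 35.3%, lie near the 46.4% and 38.2% of all genes, so they do not set the list apart. Lgr4 led the list, followed by the Wnt co-receptor gene Lrp6 at 18.8 ± 0.565 RPKM and the Frizzled receptor gene Fzd6 at 16.9 ± 0.570 RPKM. Rspo1, an R-spondin gene, was at 0.196 and 0.192 RPKM, 1 read in each library. All 3 Dishevelled genes were detected, with Dvl2 at 74.0 ± 1.07 RPKM.

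Other genes of the streak ranged from abundant to listed at 0. Of 20 measured genes 7 were detected and 9 were listed at 0 in both libraries, with a median of 0.127 ± 0.0162 RPKM. The shares were 35% and 45%, beside 46.4% and 38.2% of all genes. Nodal, the ligand that induces the streak, was at 47.5 and 47.2 RPKM, and Foxh1, the factor that reads its signal, at 36.6 and 37.3 RPKM. Eomes was the third. The other detected genes were Fgf17 (7.86 ± 2.41 RPKM), Fgf8 (3.74 ± 1.14 RPKM), Snai1 (1.71 ± 0.390 RPKM) and Tbx6. Mixl1, Mesp1, Msgn1 and Gsc, factors of the streak and its descendants named here after their values were seen, were among the genes at 0. Wnt3, the ligand upstream of T in the embryo and likewise named after its value was seen, was at 0.455 and 0.446 RPKM, 4 reads in each library.

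Hox genes, known to respond to Cdx factors, were mostly listed at 0. Of 13 measured genes 9 were at 0 in both libraries, beside 38.2% of all genes, and 1, Hoxd9, was detected, at 2.61 and 3.32 RPKM. Intestinal epithelium markers, genes of a tissue where Cdx1, Cdx2 and Lgr5 are active, were similar, with 5 of 8 at 0, only Vil1 detected, at 1.62 and 1.69 RPKM, and summed levels of 2.52 and 1.96 RPKM. Of 8 measured trophectoderm markers, the other setting of Cdx2, 5 were detected, beside 46.4% of all genes. Levels of the 8 markers summed to 192 and 199 RPKM, led by Tfap2c at 103 and 109 RPKM. Krt18 followed at 61.3 and 61.1 RPKM, and Gata3 and Hand1 were listed at 0 in both libraries. Whether cells of that type contributed to the Cdx2 level was not tested.

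Neighbouring genes on the rn5 chromosomes were mixed. Both neighbours of Rnf43 were detected, Supt4h1 at 21.1 ± 0.829 RPKM and Mtmr4 at 15.6 ± 1.43 RPKM. Nkd1 lay between Snx20, at 0 and 0.479 RPKM, and Brd7, at 62.6 ± 0.129 RPKM. Both neighbours of Cdx2 were listed at 0 in both libraries, among them Pdx1, a factor of pancreas and duodenum. Cdx1 stood beside Slc6a7 at 0 and Pdgfrb at 0.125 and 0 RPKM, Sp5 beside Myo3b at 0 and LOC499806 at 0.308 and 0.151 RPKM, and Lgr5 beside LOC100362230 at 0 and Tspan8 at 0 and 0.0394 RPKM. T lay between Pde10a, at 3.44 and 2.31 RPKM, and the gene named T2, listed at 0 in both libraries. With 2 libraries of 1 group, likeness of patterns between genes cannot be measured, so neighbours by position are given instead.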

How the data were processed

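RNA of 2 libraries in 1 wild-type group was measured. The authors made the deposited RPKM values from reads scaled by gene model length and library total; the submitters' processing notes name TopHat 1.4.0, CASAVA 1.8 and the builds rn5 and Rnor_5.0. No source used here gives the counting tool or the multi-mapping rule. Columns were matched to samples by title, and 23716 rows were summed to 23282 genes by Entrez identifier.

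With 1 group no test was possible, and levels are means ± SD. Log2 values use a pseudocount of 1, which understates differences of low genes. Read totals are those that made most rows with a locus under 6000 bp whole reads (527 of 2700 rows in replicate 1 and 525 of 2688 in replicate 2, relative tolerance 3e-07). Reads of a gene come from the shortest model from 60 to 20000 bp that makes both values whole. The true reads could be a whole multiple, which would narrow the intervals, and intervals cover counting error only. Recovery failed for some abundant genes. Utf1 received a model of 8817 bp, longer than its locus (219200178 to 219201304), and Pou5f1 received none. Models recovered for streak targets were shorter than their loci. The procedure was tested on simulated data, where exact read totals and ratios of reads between libraries were required, but not exact reads.

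The members and lists were chosen with earlier results of these data known. Some genes are in more than 1 list, so counts of different lists are not separate observations. Named are all members, their relatives and chromosomal neighbours, the 3 highest and the lowest of other lists, and up to 6 genes at 0. Of the streak list, the other detected genes, some genes at 0 and Wnt3 were named as well. Promoters are RefSeq sequences (GRCr8), the first window of each gene. Tools were matplotlib 3.10.9, scipy 1.17.1, pandas 2.3.3 and numpy 2.4.6 under Python 3.11.15.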

Additional observations from a re-analysis of the deposited data

How the results depend on the processing

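Of 37 values under another scale, pseudocount, minimum or list summary, 22 moved by more than the SD between replicates (counts by more than 1.5 times), and no difference changed direction. Leaving out a replicate says nothing on stability for means, since with 2 libraries the shift is always under the SD, and each streak target has 1 row, so the highest row cannot move it. Either replicate alone kept 3 streak targets detected, and gave -0.65 and -0.18 for members minus other targets. A detection minimum of 3 RPKM left 0 streak targets detected, against 4 at 0.3 RPKM. Rescaling each library to a sum of 1000000 put T above the minimum of 1 RPKM, with 4 streak targets detected. It also left 9 genes of the streak list detected, against 7. It gave 1.35 for T, 4.81 for Cdx2, 3.08 for Nkd1 and 3.70 for Rnf43, since the deposited sums are lower. On the log2 scale it gave 1.18 for the median of the members, -4.90 for members minus the destruction complex and TCF list, 2.06 for Cdx2 minus Cdx1, 2.53 for Cdx2 minus Cdx4, 1.39 for Nkd1 minus Nkd2, -6.56 for Lgr5 minus Lgr4 and -4.49 for T minus Eomes. With a pseudocount of 0.1 these were -0.64, -5.51, 3.29, 4.44, 2.10, -8.68 and -5.11, and Sp5 minus Sp8 was 1.03. Members minus other targets was -0.89 with that pseudocount and -0.95 with list means. Depth limits all 7 genes. With the shortest model that fits, those with recovered reads rest on 26 or fewer over both libraries, and a whole multiple is possible. No paired analysis was possible because there is only 1 group.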
